A study of Homo sapiens with 16 samples.

Results

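The comparison described here set late phase P15 against intermediate phase P7 of the gemcitabine-resistant T24 line GRC1, with 4 RNA-sequencing libraries in each phase. T24 is an established human bladder cancer cell line. GRC1 is 1 resistant line raised from it by repeated rounds of gemcitabine, each followed by outgrowth of the surviving colonies, and the phase number counts these rounds. The P7 cells had therefore passed 7 rounds and the P15 cells 15 rounds, and both were grown in DMEM with serum. Of the 16 libraries of the series, 8 belong to these 2 phases, while the parental cells (P0, never selected) and the early phase (P3) served to show where a gene stood before. Of 39007 gene symbols, the 13341 with a mean above 1 CPM (the count of a gene scaled to the size of its library) over the 8 libraries were tested. Values are log2(CPM + 1), a difference is P15 minus P7 on that scale, and this scale understates the change of low genes. A gene was called when limma gave a Benjamini-Hochberg adjusted p below 0.05 and the absolute difference was at least 1. The labels do not say that the 4 libraries of a phase came from separate cultures, so p-values measure the spread between libraries of 1 derived line.

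Gemcitabine is an analogue of deoxycytidine that enters cells through nucleoside transporters, is phosphorylated by deoxycytidine kinase and stops DNA synthesis once built into DNA. Cells that grow out of repeated exposure can differ from their parents in drug handling, in stress and survival pathways, and in genes with no known link to the drug. The gene groups described cover the extracellular matrix that cells secrete, interferon-stimulated genes (antiviral genes switched on through STAT and IRF factors), lysosomal genes, stress responses, metabolism, DNA replication and cell identity.

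The total count of a library, read off the steps between its lowest values, was 34.75 to 50 M in intermediate phase P7, and in late phase P15 it was 35.95 to 45.05 M. The median absolute difference between 2 libraries was 0.06 to 0.1 within either phase and 0.55 to 0.57 between P15 and P7, against 0.18 to 0.2 between P7 and P3. One library, P15 replicate 3, had the most genes above 0 (23127) and a median over tested genes of 4.91, against 4.87 or 4.88 in the other 3 P15 libraries. Of 12 urothelial marker genes, UPK1B, UPK3A and KRT20 were at 0 in all 8 libraries. In bulk RNA, fewer cells that express a gene and less RNA per cell cannot be told apart.

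Between P7 and P15, 3466 genes were called, of which 1902 were higher at P15 (14.3% of those tested) and 1564 were lower (11.7%). Without the threshold on size, 6355 genes were higher (47.6%) and 5207 lower (39%), with a median SE of 0.057 per gene. The middle 50% of all genes lay between -0.46 and 0.63, and the median over all genes was 0.08. Changes of at least 4 on the log2 scale, or 16-fold, were seen in 180 genes, 105 lower and 75 higher. The P15 and P7 values did not overlap for any of the 3466 genes. With so small an SE, a difference of at least 1 nearly ensures this, so it adds no support to the calls. Without P15 replicate 3, 3448 genes were called.

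**Figure D1:**
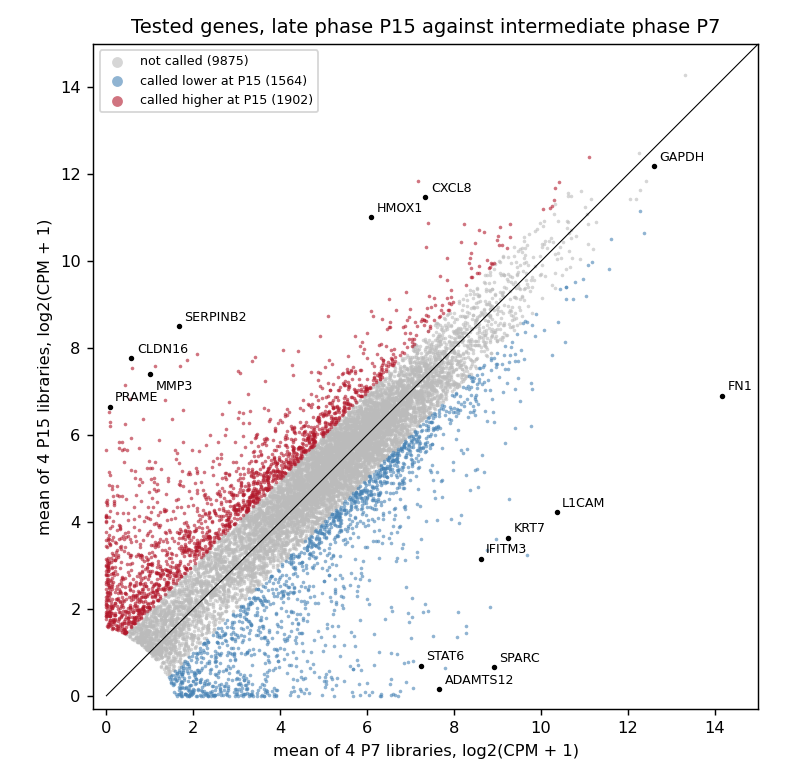
Mean log2(CPM + 1) of the 4 P7 libraries (x axis) against that of the 4 P15 libraries (y axis), 1 point per tested gene, with the line of equal values. Red points are the 1902 genes called higher at P15, blue points the 1564 called lower and black points genes given by name, and a band of genes near 0 in one phase reaches high values in the other.

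Most of these genes had been steady until P7, but less often than tested genes in general. At both P0 and P3, the mean of 3061 of the 3466 genes (88.3%) lay within 1 log2 unit of the P7 mean, as it did for 95.7% of all tested genes. The remaining 405 genes had already moved earlier in the series.

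The genes that fell most were led by matrix genes. SPARC, a secreted collagen-binding glycoprotein (chromosome 5, 151661096 to 151686975 of GRCh38), was at 8.90, 8.91, 8.94 and 8.91 in the P7 libraries and at 0.87, 0.41, 0.64 and 0.70 in the P15 libraries. The difference was -8.26 (SE 0.06, limma adjusted p = 1.1e-31), the largest fall among the tested genes, and the phases were far apart in every library. FN1, which encodes fibronectin (chromosome 2, 215360440 to 215436073), was at 14.17, 14.15, 14.12 and 14.24 at P7 and at 6.96, 6.79, 7.03 and 6.83 at P15. Its difference of -7.27 (SE 0.06, limma adjusted p = 2.4e-31) began at the highest P7 level of all tested genes. The metalloprotease gene ADAMTS12 fell from 7.66 ± 0.03 (SD, n = 4) to 0.15 ± 0.20 and the adhesion gene CADM1 from 7.05 ± 0.02 to 0.18 ± 0.09.

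Other large falls were in LAPTM5, RAC2 and STAT6. LAPTM5, a lysosomal membrane protein of lymphocytes, was at 7.76, 7.76, 7.90 and 7.77 at P7 and at 0.75, 0.64, 0.64 and 0.57 at P15. RAC2, the small GTPase of haematopoietic cells, fell from 8.27 ± 0.07 to 1.44 ± 0.11, UNC13D, a granule exocytosis factor, from 8.07 to 1.35, and ALOX5AP, needed for leukotriene synthesis, from 6.64 to 0.02. These genes were expressed in the parental T24 cells too, at P0 means of 6.36 for LAPTM5 and 8.13 for RAC2. STAT6, which relays interleukin-4 and interleukin-13 signals, was at 7.19, 7.23, 7.28 and 7.25 at P7 and at 0.81, 0.68, 0.59 and 0.68 at P15, a difference of -6.55 (SE 0.04, limma adjusted p = 1.2e-32). In lipid metabolism, the lipase inhibitor gene G0S2 fell from 8.83 to 2.04 and ACSL5, an acyl-CoA synthetase, from 6.76 to 0.11. The sugar-phosphate transporter gene SLC37A2 fell from 8.28 to 1.61 and the long non-coding RNA LINC02167 from 6.90 to 0.32.

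The genes that rose most were near the floor in P7. CLDN16, a tight junction claudin (chromosome 3, 190322541 to 190412138), was at 0.59, 0.71, 0.43 and 0.57 at P7 and at 7.84, 7.74, 7.71 and 7.80 at P15, a difference of 7.20 (SE 0.12, limma adjusted p = 4.4e-25). TENM2, a teneurin that joins neurons at synapses, rose from 0.60 ± 0.07 to 7.54 ± 0.09 and NPTX1, a neuronal pentraxin, from 0.44 ± 0.28 to 7.16 ± 0.08. SERPINB2, the plasminogen activator inhibitor PAI-2, was at 1.62, 1.45, 1.82 and 1.79 at P7 and at 8.49, 8.51, 8.38 and 8.62 at P15. It had been at 2.28 at P0 and 6.49 at P3, so its level went up, down and up again along the series.

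The interleukin gene IL24 rose from 1.12 ± 0.12 to 7.59 ± 0.19 and the stromelysin gene MMP3 from 1.00 ± 0.16 to 7.41 ± 0.13. PADI2, a protein-arginine deiminase, rose from 0.53 to 6.84, ISYNA1, the enzyme that makes inositol phosphate from glucose 6-phosphate, from 1.70 to 7.60, and VGF, a neuropeptide precursor, from 0.42 to 6.26. FGFBP1, a carrier of fibroblast growth factors, rose from 2.08 to 7.86, and LAT2, an adaptor of immune receptors, from 1.86 to 7.72. As for every called gene, the libraries of the phases did not overlap in any of them.

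**Figure D2:**
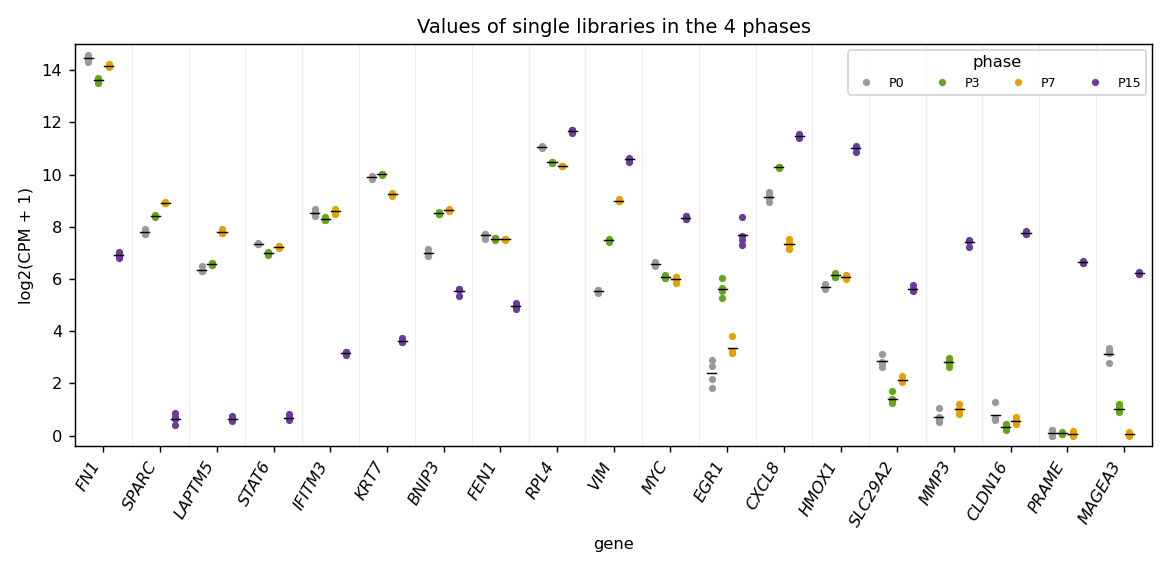
Log2(CPM + 1) of 19 genes in each of the 16 libraries, with a dot per library and a bar at the phase mean. For SPARC, LAPTM5 and STAT6 the P15 dots sit below 1 while P7 sits above 7, and for CLDN16, PRAME and MAGEA3 the order is the opposite.

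Some genes were listed at 0 in every library of one phase. Of the tested genes, 32 were at 0 in all 4 P15 libraries, and 29 of these had a mean above 1 CPM at both P0 and P3. A gene at 0 at P15 could pass the filter only through P7, so the 32 were selected for expression at P7. Of these 32, 12 had a mean above 10 CPM at P7. SLC17A9, the vesicular nucleotide transporter, was at 6.73, 6.81, 6.62 and 6.67 at P7. TXNIP, the thioredoxin-binding regulator of glucose uptake, was at 5.31, 5.21, 5.22 and 5.20. Others were PRKCDBP at 6.33, SLC2A10 at 4.40, SDR42E1 at 3.90, PNPLA4 at 3.86, SHROOM4 at 3.64 and HCAR1 at 3.62. No fold is given for these genes, since none of the P15 libraries has a value above 0. The ribosomal protein genes, oxidative phosphorylation genes and mitosis genes examined included 0 members at 0 in any P15 library. They were not matched to the 32 genes by level, so this is no check on the values of 0.

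In the other direction, 31 tested genes were at 0 in all P7 libraries, and 0 of them exceeded 1 CPM at P0 or P3. These genes could pass the filter only through P15, as those at 0 at P15 could only through P7. The counts are therefore no measure of silent genes in general, and no contrast is drawn between the P0 and P3 levels of these groups. Of the 31, the highest at P15 was SAGE1, a cancer-testis antigen, at 5.65, 5.64, 5.74 and 5.62. Next came the purinergic receptor gene P2RY8 at 4.46, the pseudogene FAR2P1 at 4.15, GAGE1 at 4.14, EPS8L1 at 4.11, CT45A10 at 4.03 and the adrenergic receptor gene ADRA2C at 3.59.

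Cancer-testis antigens, which are normally made in germ cells and kept silent elsewhere by DNA methylation, were among the rises. Of 32 listed, 9 passed the filter and all 9 were called higher, but a gene silent at P7 could pass only through P15, so the count is no measure of the list. PRAME was at 0.07, 0.06, 0.16 and 0.00 at P7 and at 6.65, 6.68, 6.63 and 6.63 at P15. MAGEA3 was at 0.07, 0.00, 0.08 and 0.14 at P7 and at 6.21, 6.19, 6.18 and 6.26 at P15. It had been at 3.13 ± 0.25 at P0. The members of the MAGEA and GAGE families are near-identical copies, so reads may be split between them. MAGEA1 and MAGEA2, which did not pass the filter, were at 0.32 and 0.06 at P15. Of 27 DNA methylation and chromatin genes, 3 were called higher (DNMT3A, 3.60 to 4.76, TET1, 1.37 to 2.56, and EZH2, 5.96 to 7.01) and 1 lower (HDAC1, 8.38 to 7.11), while DNMT1 was at 7.67 and 7.89. These shares (11.1% and 3.7%) were below those of all genes (14.3% and 11.7%). In the test against a 2-fold change, 0 were higher. A link between these genes and the antigens was not tested.

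Matrix genes fell more often than they rose. Of 45 matrix protein genes tested, 20 were lower and 9 higher, with a median difference of -0.80 against 0.08 for all genes. Besides SPARC and FN1, the falls took in LOX, the collagen cross-linking enzyme (7.01 to 1.32), TGFBI (6.15 to 0.70), the fibrillin gene FBN1 (7.36 to 4.03), COL7A1 (9.18 to 5.82) and the collagen VI chains COL6A1 (10.26 to 7.85) and COL6A2 (10.56 to 8.14). The rises were of other chains, among them COL3A1 (0.02 to 4.51), COL5A1 (0.17 to 4.40) and the proteoglycan VCAN (3.63 to 6.63), together with CYR61 (8.49 to 10.41). COL1A1, a chain of the main fibrillar collagen, rose from 2.62 to 4.64.

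Matrix proteases and their inhibitors moved in both directions. Of 33 tested, 14 were higher and 10 lower, both shares above those of all genes, and the median was 0.15. The secreted collagenase MMP1 rose from 3.03 to 7.46 beside MMP3 and MMP10 (0.64 to 4.06), which lie in 1 gene cluster, and MMP2 rose from 0.05 to 2.49. The plasminogen activator genes PLAT and PLAU rose from 5.37 to 7.10 and from 8.40 to 9.64. Membrane-bound MMP14 fell from 8.54 to 5.22, and the inhibitors TIMP3 (5.67 to 0.61) and TIMP2 (8.22 to 6.76) fell as well. TIMP4 fell from 2.47 to 0 in all P15 libraries, while TIMP1 was at 8.0 and 8.15.

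Interferon-stimulated genes were lower at P15 as a group. Of 48 tested, 29 were lower and 1 higher, the median difference was -1.5, and the median of single P15 libraries lay between -1.58 and -1.45. To show the sequence in front of such genes, promoter stretches of 3 are printed here (RefSeq, GRCh38.p14, 120 bases each, matches on either strand in capitals). These 3 had the largest fall among those holding the letters GAAANNGAA in the 250 bases before their start. This string is a form of the interferon response element bound by STAT and IRF factors, and 5.33% of the 9620 promoters of tested protein-coding genes that could be matched hold it.

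IFITM3, chr11:320861-320980, minus strand: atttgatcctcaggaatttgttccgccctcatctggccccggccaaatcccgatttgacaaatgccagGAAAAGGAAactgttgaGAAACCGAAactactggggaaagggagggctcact
BST2, chr19:17405701-17405820, minus strand: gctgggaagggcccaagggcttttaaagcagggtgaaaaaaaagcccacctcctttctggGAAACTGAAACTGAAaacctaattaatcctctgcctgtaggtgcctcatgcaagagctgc
IFI27, chr14:94110569-94110688, plus strand: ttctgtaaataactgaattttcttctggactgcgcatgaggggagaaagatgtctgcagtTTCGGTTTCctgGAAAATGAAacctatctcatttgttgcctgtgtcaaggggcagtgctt

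Each of the 3 promoters holds the string 2 times, and the matches of BST2 overlap. Of the 36 interferon-stimulated genes with a promoter, 20 held the letters. Of these 20, 13 were lower and 0 higher (median -1.81), and of the 16 without the letters 10 were lower and 1 higher (median -1.48). A part of the letters in the fall was not tested. The share of 20 in 36 is not compared with the background, since only 36 of the 48 (75%) had a promoter in the reference table. Among the called genes, 78.5% of those higher and 79.7% of those lower had one.

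IFITM3, which blocks viral entry at endosomes, was at 8.63, 8.50, 8.69 and 8.62 at P7 and at 3.08, 3.20, 3.21 and 3.11 at P15, a difference of -5.46 (SE 0.05, limma adjusted p = 8.6e-30). BST2, or tetherin, which holds budding virus at the cell surface, was at 7.41, 7.35, 7.42 and 7.40 at P7 and at 1.87, 2.10, 1.90 and 1.94 at P15. IFI27 fell from 5.80 ± 0.04 to 0.70 ± 0.19 and the cytidine deaminase gene APOBEC3G from 5.81 to 0.26. The IFITM1 and IFITM2 genes beside IFITM3 fell from 4.52 to 0.39 and from 6.28 to 1.02, and reads of these near-identical copies may be shared. IFIT1 (7.36 to 6.31), IFIT2 (7.54 to 6.13) and IFIT3 (7.98 to 5.19), RNA-binding antiviral proteins, were lower by smaller amounts, and without P15 replicate 2 the difference of IFIT1 was -0.98, under the threshold.

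Factors that switch these genes on differed less. STAT2 was at 6.03 and 5.68 and IRF1 at 5.53 and 4.77, both below the threshold on size, and IRF9, the DNA-binding partner of the STATs, was the 1 member called higher (0.76 to 1.96). That call was lost with a pseudocount of 5, under quantile normalization and in the test against a 2-fold change, each of which left 0 members higher, as did a filter at 5 CPM. ISG15, a ubiquitin-like protein, was at 7.13 and 6.53.

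Antigen presentation genes were also lower. Of 19 tested, 10 were lower and 1 higher, with a median of -1.29. HLA-DPB1, a class II chain, was at 5.22, 5.21, 5.21 and 5.17 at P7 and at 0.17, 0.19, 0.00 and 0.29 at P15, and the invariant chain CD74 fell from 4.48 to 0.58. In class I, HLA-B fell from 8.50 to 6.78, B2M from 10.57 to 9.14 and the immunoproteasome subunit PSMB10 from 3.92 to 1.46, while HLA-C was at 8.48 and 7.59. The gene that rose was CD274, which encodes the checkpoint ligand PD-L1, from 4.14 ± 0.10 to 5.78 ± 0.09.

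Cytokine and NF-kappaB genes split by member. Of 36 tested, 13 were higher and 7 lower, and the median was 0.19. CXCL8, the neutrophil chemokine interleukin-8, was at 7.16, 7.38, 7.53 and 7.30 at P7 and at 11.47, 11.41, 11.44 and 11.56 at P15, a difference of 4.13 (SE 0.06, limma adjusted p = 2.8e-25). It had been at 9.15 at P0 and 10.27 at P3. The related chemokines CXCL2 (4.41 to 7.94) and CXCL3 (3.25 to 6.94) rose too, as did CCL20 (2.67 to 6.48) and the NF-kappaB target BIRC3 (5.11 to 8.74). CXCL5 fell from 4.56 to 0.06, IL1A from 6.89 to 2.50 and IL1B from 7.97 to 5.38, and IL6 was at 6.63 and 6.42.

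Genes switched on by ERK signalling were more often higher. Of 35 tested, 18 were higher and 5 lower, with a median of 1.04. EGR1, an immediate early transcription factor, was at 3.21, 3.25, 3.82 and 3.17 at P7 and at 7.29, 7.49, 8.37 and 7.65 at P15, where replicate 3 was the highest. The early response gene IER3 rose from 7.41 to 10.89, the ligand AREG from 3.42 to 5.94 and MYC from 5.99 ± 0.11 to 8.35 ± 0.07. The ERK phosphatases were unequal, with DUSP5 higher (5.33 to 7.34), DUSP1 higher (6.36 to 7.45), DUSP4 lower (6.25 to 4.49) and DUSP6 at 5.85 and 6.11. EPHA4 fell from 3.47 to 0.07, TGFA from 6.74 to 4.81 and CCND1, or cyclin D1, from 9.68 to 8.61. Of the 16 RAS and MAPK genes that the study named for P15, 7 were higher and 1 lower, but the study chose them on these libraries, so they are no independent evidence. Among the RAS genes themselves, HRAS fell from 7.55 to 6.43 and NRAS was at 7.52 and 7.35.

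Stress genes driven by ATF4, a factor made when translation is slowed by amino acid shortage or misfolded protein, were more often higher. Of 29 tested, 13 were higher and 0 lower (1 lower under quantile normalization), and the median was 0.93. ATF3, a stress-induced repressor, was at 2.89, 2.94, 3.04 and 2.95 at P7 and at 5.70, 5.81, 5.90 and 5.92 at P15. ASNS, asparagine synthetase, rose from 6.35 ± 0.10 to 8.67 ± 0.06, NUPR1 from 0.02 to 2.39 and GDF15 from 6.89 to 9.30, and DDIT3, or CHOP, rose from 4.54 to 6.22. ATF4 itself was at 9.29 and 9.67. Stretches of the ATF3 and ASNS promoters are shown because they are the members called higher with the largest differences that hold TGATGNAA, a form of the amino acid response element bound by ATF4 (both strands searched, match in capitals), which 1.27% of the 9620 promoters hold.

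ATF3, chr1:212565157-212565276, plus strand: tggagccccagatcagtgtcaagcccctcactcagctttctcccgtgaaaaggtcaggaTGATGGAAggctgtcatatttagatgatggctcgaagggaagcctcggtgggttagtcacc
ASNS, chr7:97872417-97872536, minus strand: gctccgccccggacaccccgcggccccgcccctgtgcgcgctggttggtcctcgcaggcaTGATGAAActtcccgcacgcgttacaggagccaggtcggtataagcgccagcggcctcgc

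Of the 22 ATF4 genes with a promoter in the table, 3 held these letters and the others did not. This is not compared with the background, since 75.9% of the list had a promoter in the table. The endoplasmic reticulum chaperones of the unfolded protein response did not rise with them: of 25 tested, 0 were higher and 3 lower (DNAJC3, 8.31 to 5.68, EDEM1, 7.36 to 5.64, and P4HB, 10.58 to 9.41). The share called lower, 12%, was close to the 11.7% of all genes. By adjusted p alone 18 were lower and 4 higher, with a median of -0.41. HSPA5, the chaperone BiP, was at 10.60 and 10.76.

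Among NRF2 targets, 4 of 21 were higher and 4 lower (19% each, against 14.3% and 11.7% of all genes). HMOX1, haem oxygenase 1, was at 6.12, 6.01, 6.14 and 6.10 at P7 and at 11.07, 11.11, 10.85 and 11.04 at P15, a difference of 4.92 (SE 0.05, limma adjusted p = 2.4e-29), which set it apart from NQO1 (8.72 and 8.04) and GCLC (4.75 and 5.09). NFE2L2, which encodes NRF2, rose from 6.37 to 7.65, OSGIN1 from 3.64 to 5.03 and SRXN1 from 1.57 to 2.76. The ferritin heavy chain gene FTH1 fell from 11.57 to 9.82, AKR1C3 from 3.52 to 1.47 and TALDO1 from 8.42 to 7.24. Of 22 p53 target genes, 4 were higher and 2 lower (18.2% and 9.09%), close to the shares of all genes. BBC3, the death factor PUMA, went from 3.76 to 6.37, GADD45A from 6.14 to 8.74 and PHLDA3 from 5.31 to 0.40, while CDKN1A was at 7.34 and 7.98. In the BCL2 family, the survival genes BCL2A1 (1.42 to 5.01) and MCL1 (8.39 to 10.20) were higher along with BBC3, and BAD was lower (5.22 to 4.10).

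Lysosomal genes were lower more often than higher. Of 46 hydrolase genes, 10 were lower and 4 higher (median -0.31), of 22 membrane proteins and their regulators 7 were lower and 1 higher (median -0.71), and of 17 V-ATPase subunits, the pump that acidifies lysosomes, 5 were lower and 0 higher (median -0.58). CTSS, the protease cathepsin S of antigen-presenting cells, was at 6.45, 6.61, 6.58 and 6.57 at P7 and at 0.38, 0.41, 0.47 and 0.29 at P15. CPVL fell from 4.76 to 0.73 and CTSZ from 8.87 to 6.82, whereas CTSC rose from 6.51 to 8.48, LGMN from 5.66 to 6.89. The main membrane glycoprotein LAMP1 was at 10.07, 10.03, 10.08 and 10.07 at P7 and at 8.41, 8.42, 8.36 and 8.47 at P15. LAMP2 fell from 8.36 to 6.73 and CD63 from 9.46 to 7.71. The 1 member of the membrane list called higher was not a membrane protein but MITF, a transcription factor related to those that drive lysosomal genes (2.67 to 4.27), and its relatives TFE3 and TFEB were at 7.17 and 7.69 and at 2.6 and 2.91.

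Glycolysis and hypoxia genes fell. Of 36 tested, 15 were lower and 1 higher, with a median of -0.81, and the median of single P15 libraries was -0.89 to -0.75. Relative to P7 the same genes had library medians of -0.77 to -0.57 at P0 and -0.20 to -0.18 at P3, so they had climbed up to P7 before they fell. BNIP3, a hypoxia-induced mitophagy receptor, was at 8.67, 8.60, 8.65 and 8.64 at P7 and at 5.35, 5.60, 5.62 and 5.57 at P15. SLC2A3, the glucose transporter GLUT3, fell from 6.0 to 0.29 and ADM, adrenomedullin, from 6.87 to 3.12. LDHA fell from 12.37 ± 0.01 to 10.64 ± 0.05, PGK1 from 11.04 to 9.20 and HK1 from 9.18 to 8.06, while SLC2A1 was at 8.58 and 8.06 and HK2 at 7.06 and 7.19. The 1 gene that rose was PFKM (6.0 to 7.06). Of 71 oxidative phosphorylation genes, 6 were higher and 1 lower, shares below those of all genes.

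Sterol and fatty acid synthesis genes were more often higher. Of 32 tested, 12 were higher and 3 lower, with a median of 0.78. FADS2 rose from 5.86 to 7.51, TM7SF2 from 2.86 to 4.85 and MSMO1 from 5.48 to 7.25. HMGCS1 was at 6.22 and 6.98 and MVK at 4.27 and 5.03. The 3 members that fell are not described here.

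Ribosomal protein genes were higher by small amounts. Of 77 tested, 15 were called higher and 0 lower, and by adjusted p alone 66 were higher and 8 lower, with a median of 0.71. RPL4 was at 10.33, 10.32, 10.32 and 10.31 at P7 and at 11.72, 11.71, 11.58 and 11.70 at P15. RPL13A (10.42 to 11.83), RPL12 (9.03 to 10.38), RPL3 (10.26 to 11.27) and RPL5 (10.04 to 11.20) were also called, RPL3 narrowly, with 0.99 without P15 replicate 1 or 2 and 1.00 without P7 replicate 2. Under quantile normalization RPL3 (0.84) and RPL5 (0.96) were under the threshold, and 8 ribosomal protein genes were called higher in place of 15 (9 in the test against a 2-fold change). At P0, RPL4 had been at 11.06. Of 32 ribosome biogenesis genes, 1 was higher (GNL3, 6.55 to 7.78) and 0 lower.

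DNA replication genes were called in 1 direction only, and mitosis genes almost not at all. Of 42 replication genes, 8 were lower (19%, against 11.7% of all genes) and 0 higher, with a median of -0.29. FEN1, the flap endonuclease, was at 7.53, 7.53, 7.50 and 7.53 at P7 and at 5.08, 4.84, 5.00 and 4.92 at P15. CDC6, a licensing factor, fell from 7.03 to 5.14, MCM4 of the replicative helicase from 8.23 to 6.66 and PCNA, the sliding clamp, from 8.02 to 6.52, and MCM3 (7.66 to 6.52) was called as well. MCM2 (7.42 to 6.42) passed narrowly, with -0.99 without P7 replicate 3 or 4 or P15 replicate 1 or 4. Of 40 mitosis genes, 1 was called higher (NUF2, 5.59 to 6.63) and 0 lower. By adjusted p alone 24 were higher and 12 lower, with a median of 0.23. MKI67 was at 9.29 and 8.50 and TOP2A at 9.07 and 8.85, against the direction of that median. Of 18 G1 regulators, CCNE2 (4.62 to 2.16), CDC25A (5.06 to 3.66) and CCND1 were lower, and the inhibitors CDKN2B (2.91 to 4.77) and CDKN2A (4.98 to 6.04) were higher. These shares (16.7% lower and 11.1% higher) were close to those of all genes (11.7% and 14.3%).

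Genes that handle gemcitabine were called in few members. Of 33 tested, 6 were higher and 3 lower, close to the shares of all genes, and the median was 0.12. SLC29A2, an equilibrative nucleoside transporter, was at 2.09, 2.11, 2.04 and 2.30 at P7 and at 5.56, 5.55, 5.78 and 5.61 at P15, and SLC29A1 rose from 5.99 to 7.08. DCK, the kinase that activates the drug, was at 5.95, 6.10, 6.0 and 5.96 at P7 and at 4.75, 4.71, 4.69 and 4.79 at P15, a difference of -1.27 (SE 0.05, limma adjusted p = 1.7e-17). CDA, the deaminase that inactivates it, rose from 0.53 ± 0.11 to 2.09 ± 0.21, and NT5M, a mitochondrial nucleotidase, from 0.65 to 3.68. SAMHD1, which breaks down deoxynucleotide triphosphates, fell from 6.74 to 5.22 and NT5C2 from 5.76 to 4.36. The ribonucleotide reductase genes, targets of the drug, stayed under the threshold on size, with RRM1 at 8.09 and 7.38 and RRM2 at 8.98 and 8.44, and the concentrative transporters SLC28A1, SLC28A2 and SLC28A3 were under 1 CPM.

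Urothelial and keratin genes were lower, and the mesenchymal ones mixed. Of 14 urothelial and keratin genes that passed the filter, 8 were lower and 3 higher. KRT7, a keratin of simple and urothelial epithelium, was at 9.26, 9.17, 9.28 and 9.26 at P7 and at 3.59, 3.66, 3.59 and 3.73 at P15, a difference of -5.60 (SE 0.04, limma adjusted p = 7.9e-33). KRT19 fell from 3.74 to 0.02 and KRT8 from 9.41 to 6.16, and its partner KRT18 was at 8.82 and 9.31. The luminal factors fell, GATA3 from 4.78 ± 0.04 to 1.28 ± 0.11, PPARG from 6.36 to 4.15 and FOXA1 from 3.14 to 2.06, although without P15 replicate 1 the difference of FOXA1 was -0.92, under the threshold. KRT17 (0.16 to 4.02), KRT80 (4.15 to 6.61) and KRT15 (3.24 to 4.73) rose. The summed level of the 12 urothelial markers was 1780 to 1930 CPM at P7 and 696 to 774 CPM at P15.

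Of 16 genes of the epithelial-mesenchymal transition, 6 were higher and 3 lower (37.5% and 18.8%, against 14.3% and 11.7% of all genes). VIM, which encodes vimentin, was at 8.99, 9.05, 9.0 and 8.98 at P7 and at 10.61, 10.64, 10.49 and 10.58 at P15, after 5.52 at P0 and 7.48 at P3. Of the factors, FOXD1 rose from 4.26 to 7.62, SNAI1 from 0.92 ± 0.19 to 3.12 ± 0.09 and ZEB1 from 5.46 to 6.57, whereas ZEB2 (4.68 to 2.28) and SNAI2 (6.17 to 4.50) fell, and CDH2, or N-cadherin, was at 7.25 and 6.62. CDH1, or E-cadherin, was at 0.00 and 0.07, under the filter. Among 23 epithelial junction genes, 7 were higher and 5 lower (30.4% and 21.7%). The gap junction gene GJA1 was at 1.82, 1.77, 1.48 and 1.94 at P7 and at 6.59, 6.55, 6.55 and 6.62 at P15. OCLN and PKP2 rose from 2.85 to 4.84 and from 3.54 to 4.87, and MAL2 fell from 4.52 to 1.03. Of the integrin chains, ITGA10 rose from 0.85 to 6.37, ITGB4 from 3.67 to 5.78 and ITGA6 from 7.92 to 9.34, while ITGB8 fell from 4.25 to 1.48 and ITGA11 from 3.70 to 1.19. Of 29 actin and YAP genes, 6 were lower and 1 higher, led by FLNC, or filamin C (7.05 to 0.80), and MYL9 (6.67 to 3.11). Of 27 HOX genes, 9 were lower (33.3%) and 3 higher (11.1%), with HOXA13 (3.71 to 0.92) and HOXB5 (3.18 to 0.47) falling most and HOXC10 (1.60 to 5.46) rising most.

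**Figure D3:**
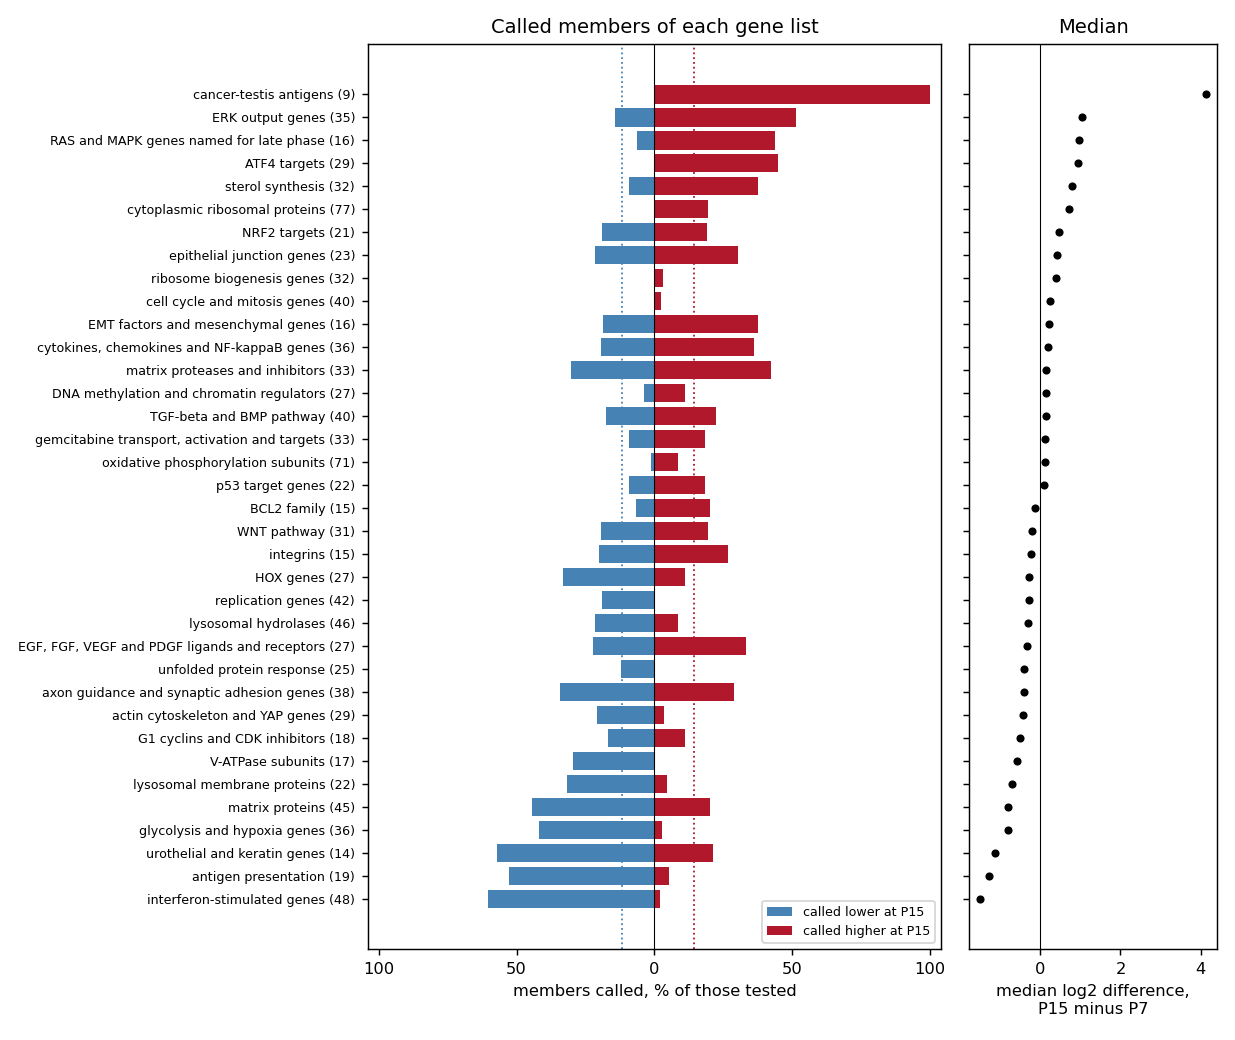
Left, the share of tested members of each gene list with at least 9 tested members called higher (red, to the right) or lower (blue, to the left) at P15, in percent, with the number tested in parentheses and dotted lines at the shares of all genes (14.3% and 11.7%). Right, the median log2 difference of the same lists, with interferon-stimulated genes lowest at -1.5. The cancer-testis value of 4.14 covers only the 9 antigens that passed the filter through P15.

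Signalling pathways held members that rose and members that fell. In the TGF-beta and BMP pathway, 9 of 40 were higher and 7 lower (22.5% and 17.5%, against 14.3% and 11.7% of all genes). The ligand BMP6 rose from 0.67 to 5.16, the receptor BMPR1B from 0.21 to 2.39, while BMP4 fell from 3.74 to 0.60 and INHBB from 3.29 to 0.05. The core SMAD genes SMAD2, SMAD3 and SMAD4 were at 6.24 and 6.53, 7.68 and 8.10, and 5.64 and 5.71. In the WNT pathway, 6 of 31 were higher and 6 lower (19.4% each). The secreted inhibitor NOTUM rose from 0.30 to 3.91 and NKD2, an intracellular one, from 0.04 to 3.63, whereas the inhibitor DKK1 fell from 7.14 to 3.32 and the ligand WNT5A from 5.12 to 3.29.

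Among growth factor ligands and receptors, 9 of 27 were higher and 6 lower (33.3% and 22.2%, against 14.3% and 11.7% of all genes). EPGN, an EGF receptor ligand, rose from 0.28 to 5.70, the receptors FGFR4 from 1.58 to 5.66 and ERBB3 from 1.00 to 4.07, and the co-receptor NRP1 fell from 7.72 to 4.58. EGFR and ERBB2 were at 8.04 and 8.41 and at 6.74 and 5.83. Of 38 axon guidance and synaptic adhesion genes, 11 were higher and 13 lower, both shares above those of all genes. L1CAM, a neural adhesion molecule, was at 10.40, 10.30, 10.37 and 10.39 at P7 and at 4.25, 4.31, 4.21 and 4.13 at P15, a difference of -6.14 (SE 0.03, limma adjusted p = 1.0e-33). RELN fell from 4.67 to 0.05 and NPTXR, a receptor of pentraxins, from 4.71 to 1.01, against the rises of TENM2, NPTX1 and SEMA6A (0.98 to 4.69).

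The summed level of each list of markers of other cell types did not overlap between the phases. Of 14 leukocyte markers in the table, 1 exceeded 1 CPM at P7 (CD14, 2.77 to 0.08) and 0 did at P15, PTPRC was at 0 in all P7 libraries, and the summed level was 5.84 to 6.87 CPM at P7 and 0.453 to 1.03 CPM at P15. The 12 fibroblast markers summed to 5.57 to 6.58 CPM at P7 and 50.6 to 54.9 CPM at P15, of which 4 exceeded 1 CPM at P15 (COL1A1, COL3A1, POSTN and PDGFRB), while DCN was at 0 in all 8 libraries. The 12 neuronal and melanocyte markers summed to 9.20 to 11 CPM at P7 and 64.2 to 67.3 CPM at P15, led by SYP (1.00 to 5.24). The 13 endothelial markers summed to 106 to 116 CPM at P7 and 68.5 to 73.9 CPM at P15, mostly from ROBO4 (6.68 to 3.77) and ESAM (1.22 to 5.88), and CDH5 was at 0.00 and 0.18. Their part in the differences was not tested.

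Called genes were unevenly spread over the chromosomes. Of 13341 tested genes, 12241 (91.8%) were placed on GRCh38 by symbol. On chromosome 11, 184 of 693 genes were lower (26.6%) and 56 higher, with a median of -0.46, and on chromosome 13, 64 of 225 were lower (28.4%) and 17 higher, with a median of -0.34. Chromosome 19 was shifted the other way, with 230 of 892 genes higher (25.8%), 39 lower and a median of 0.44. The medians of the single P15 libraries were -0.48 to -0.44 on chromosome 11, -0.38 to -0.35 on chromosome 13 and 0.40 to 0.45 on chromosome 19. The other nuclear chromosomes had medians between -0.18 and 0.24, and the 16 mitochondrial genes, not plotted, had a median of -0.7.

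**Figure D4:**
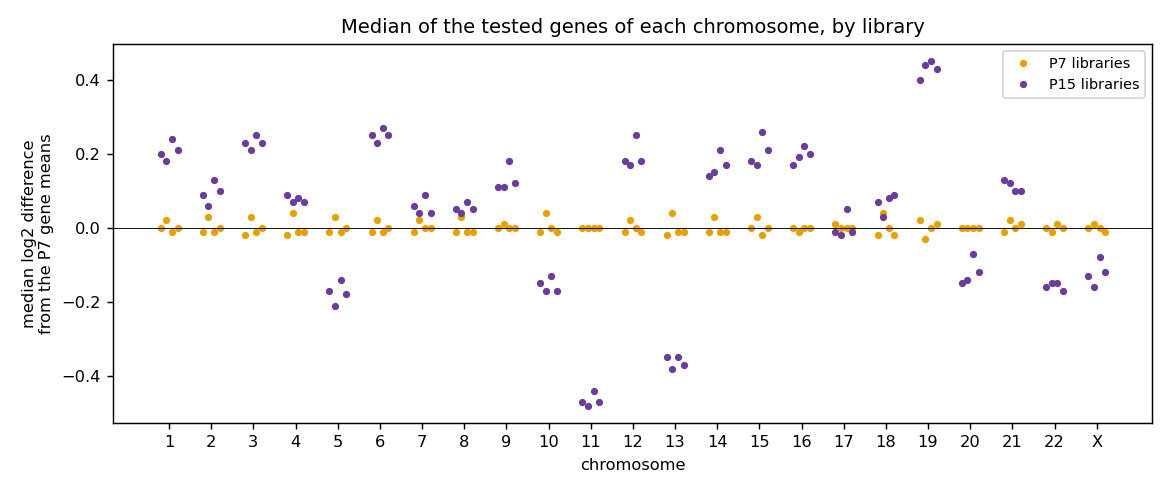
Median difference of the tested genes of each nuclear chromosome from their P7 means (y axis, log2 scale), with 1 dot per library of P7 (yellow) and P15 (purple). The P7 dots lie near 0, and the P15 dots of chromosomes 11, 13 and 19 lie farthest from it.

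Within chromosomes, the size of the shift differed between stretches. In 431 windows of 5 Mb with at least 10 tested genes, the median difference was below 0.5 in size in 359, at -1 or less in 5 and at 1 or more in 2. The lowest was the end of chromosome 13 (110000001 to 115000000), where 16 of 27 genes were lower and the median was -1.27. The windows at 95000001 to 100000000 and at 75000001 to 80000000 of the same chromosome had medians of -1.10 and -1.04. On chromosome 11, those at 40000001 to 45000000 (10 genes) and at 125000001 to 130000000 (22 genes) had -1.22 and -1.06. Windows elsewhere along chromosome 11 were lower by less, for example -0.62 at 1 to 5000000, -0.42 at 65000001 to 70000000 and -0.68 at 70000001 to 75000000. The window at 105000001 to 110000000 had 0.18. The highest were on chromosome 3 (55000001 to 60000000, 18 genes, 1.15) and chromosome 2 (225000001 to 230000000, 12 genes, 1.01), and a window of chromosome 19 (45000001 to 50000000) with 116 genes had 52 higher, 5 lower and a median of 0.85. The ranges of the P15 libraries lay far from those of P7 in each, for example -1.33 to -1.13 against -0.01 to 0.02 at the end of chromosome 13.

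The course before P7 differed between these stretches. The end of chromosome 13 had been lower in the parental cells, with library medians of -0.88 to -0.82 relative to P7 at P0 and -0.36 at P3, so it climbed up to P7 and was lowest at P15. The window of chromosome 13 from 95000001 took the same course (-0.92 to -0.85 at P0, -0.33 to -0.30 at P3 and -1.14 to -1.08 at P15). The windows of chromosomes 3, 11, 19 and 20 shown in the plot of windows by phase were within 0.21 of P7 at P0 and P3. No measurement of DNA was analysed here, and copy number was not tested.

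**Figure D5:**
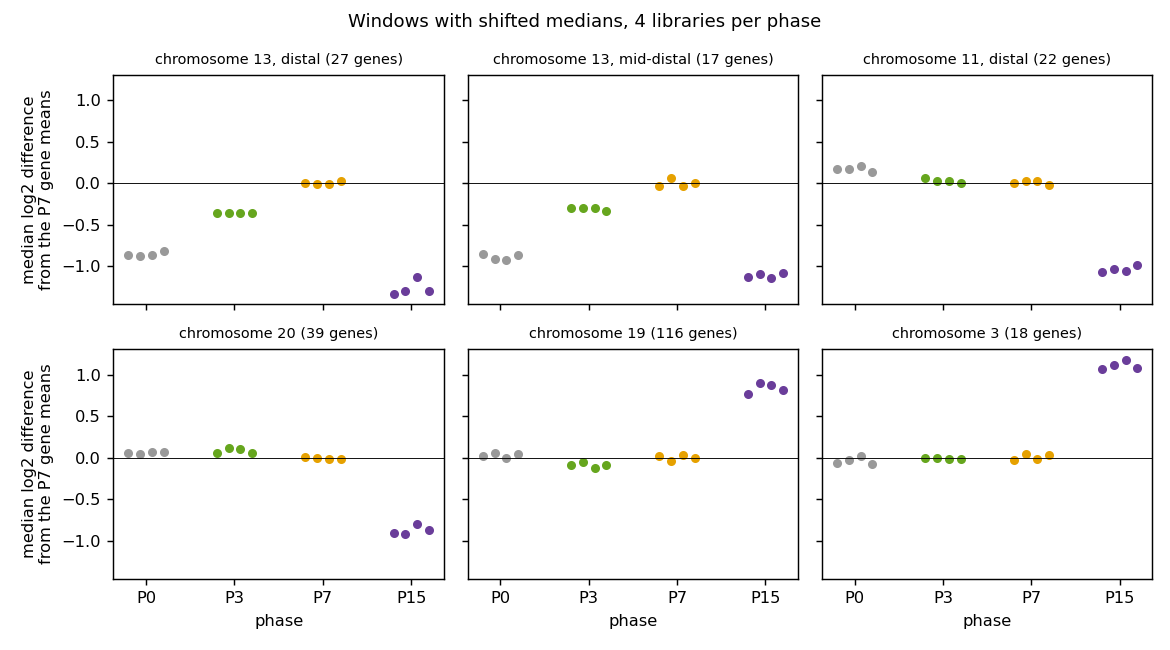
Median difference of the genes of 6 windows of 5 Mb from their P7 means (y axis, log2 scale) in the 4 libraries of each phase (x axis). The 2 windows of chromosome 13 rise from P0 to P7 and drop at P15, whereas the other 4 change at P15.

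In all, 10 runs of at least 5 neighbouring tested protein-coding genes were all called in 1 direction, 6 lower and 4 higher, with 57 genes. In a recount chosen after seeing the data, 5 of the 10 stayed whole with a pseudocount of 5. With a filter at 5 CPM, which removes low members, 3 stayed whole, and 6 did in the test against a 2-fold change. Of the lower runs, 4 lie on chromosome 13. One holds the collagen IV pair COL4A1 (9.61 to 7.76) and COL4A2 (10.39 to 8.61) with RAB20, NAXD and CARS2. Another holds DCUN1D2, TMCO3, TFDP1 (8.92 ± 0.03 to 6.30 ± 0.03), the dimer partner of E2F, TMEM255B and GAS6 (7.22 to 5.82), the ligand of AXL. On chromosome 11 (303655 to 404908) the run IFITM2, IFITM1, IFITM3, B4GALNT4 and PKP3 was lower by 1.05 to 5.46, and part of the interferon group thus lies in 1 stretch.

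The longest run that rose has 8 genes on chromosome 19 (49114324 to 49442360), LIN7B, PPFIA3, TRPM4, SLC6A16, CD37, TEAD2, DKKL1 and SLC17A7, by 1.42 to 3.24. With a pseudocount of 5, LIN7B, SLC6A16, CD37 and DKKL1 lost their call. Another run on chromosome 19 includes 3 calcium channel gamma subunit genes, CACNG7 (0.08 to 6.31), CACNG8 (0.07 to 6.54) and CACNG6 (0.02 to 3.42), and OSCAR (4.92 to 8.28). Members near 0 at P7, such as these 3 subunit genes and MAGEA3, could pass the filter only through P15, so their direction was fixed. Members near 0 at P15 could likewise pass only through P7. Neighbours below the filter are skipped, so the runs are no measure of whole stretches. The run on chromosome X (152166234 to 152769716) holds GABRA3, MAGEA3, CSAG1, MAGEA12, CSAG3 and MAGEA6, rising by 1.69 to 6.14, within a window where 22 of 50 genes were lower. The run on chromosome 4 has SPRY1, ANKRD50, FAT4, INTU and HSPA4L. With the same pseudocount, GABRA3, FAT4, INTU and, in the run of chromosome 11, B4GALNT4 were no longer called.

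The earlier step from P0 to P3, which shares no library with this comparison, changed 556 genes (4.17%). Of these, 368 (66.2%) were also called between P15 and P7, where they make up 10.6% of the called genes. Their directions were 155 times the same and 213 times opposite. Of 301 genes lower at P3 than at P0, 117 were higher and 84 lower at P15 than at P7, and of 255 higher at P3, 96 were lower and 71 higher. The median differences from P7 to P15 were 0.58 and -0.44 for these groups.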

How the data were processed

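RNA was sequenced from 4 libraries in each of P0, P3, P7 and P15. The authors deposited 1 table of log2(CPM + 1) values with 2 decimals, made after alignment with STAR 2.6.1a to GRCh38 (per the submitters' processing notes) and gene counting. Counts were not used here, and the quantile normalisation and median centring named in the methods could not be seen in the values. All 16 libraries were fitted with limma 3.58.1 (R 4.3.3), with 1 coefficient per phase and a variance prior that followed the mean, for genes with a mean above 1 CPM over the P7 and P15 libraries. Adjusted p-values are Benjamini-Hochberg values over 13341 genes. On simulated data, 200 of 200 changed genes were recovered with 0 false calls. All simulated shifts lay well past the threshold on size, in genes away from the floor and with normal spread. This outcome was therefore nearly ensured. It checks the code and says nothing on low genes or on calls close to the threshold. Symbols were matched to GENCODE 44, and 27 symbols turned into dates and 2 duplicated names were not restored. The members and gene lists were chosen with earlier results of these data known. Named genes are the 15 called genes with the largest rise and the 15 with the largest fall above 10 CPM in the higher phase, up to 3 called members in each direction and the first 3 members of each list, and up to 10 genes of each run or group at 0. Some genes under this rule are not reported here. All other named genes were chosen after their values were seen. Alternatives changed the filter, pseudocount, scaling, libraries, pairing, variance prior and threshold.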

Additional observations from a re-analysis of the deposited data

Results flagged for a closer look

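Among the 280 genes named, 1 library of a phase stood apart from the other 3 in 47 of 560 sets of 4 libraries (8.39%), by Dixon's test of the gap over the range. Chance flags about 1 in 20 such sets of normal values without rounding. The values here have 2 decimals, and some flagged sets lie at the floor, where 1 library above 0 is enough for a flag. The 8.39% is therefore not comparable with that rate. P15 replicate 3 accounted for 15 of the 47 flagged sets and P7 replicate 3 for 9. In none of them did the P15 and P7 libraries of a called gene overlap. In P7 replicate 1, the highest value stood apart for CD37 (0.43), COL3A1 (0.07) and PPARG (6.38). In P7 replicate 1, the lowest value stood apart for PKP2 (3.46). In P7 replicate 2, the highest value stood apart for ANKRD50 (6.54) and EPHA4 (3.57). In P7 replicate 2, the lowest value stood apart for FOXD1 (3.93), GAS6 (7.14), P4HB (10.51) and SLC37A2 (8.23). In P7 replicate 3, the highest value stood apart for AKR1C3 (3.59), CACNG6 (0.08), CTSC (6.58), EGR1 (3.82), LAPTM5 (7.90) and NKD2 (0.16). In P7 replicate 3, the lowest value stood apart for CCNE2 (4.50), FEN1 (7.50) and SMAD3 (7.66). In P7 replicate 4, the highest value stood apart for DCUN1D2 (4.83), IRF9 (1.07) and SNAI2 (6.23). In P15 replicate 1, the highest value stood apart for ALOX5AP (0.07). In P15 replicate 1, the lowest value stood apart for CACNG6 (3.25), FADS2 (7.44) and ROBO4 (3.59). In P15 replicate 2, the highest value stood apart for COL6A1 (7.94), KRT19 (0.07) and PSMB10 (1.71). In P15 replicate 2, the lowest value stood apart for HSPA4L (6.37). In P15 replicate 3, the highest value stood apart for DUSP1 (7.57), EDEM1 (5.87), FBN1 (4.30), MCM3 (6.64), MKI67 (8.78) and SLC37A2 (1.90). In P15 replicate 3, the lowest value stood apart for GATA3 (1.12), IL24 (7.31), INHBB (0.00), MMP10 (3.65), MMP3 (7.22), POSTN (2.06), RPL12 (10.28), RPL4 (11.58) and RRM1 (7.32). In P15 replicate 4, the lowest value stood apart for CD37 (1.98) and NPTXR (0.70). All values are log2(CPM + 1), and no cause was tested.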

How the results depend on the processing

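The counts of 3466, 1902 and 1564 genes stayed within 1.5 times under every alternative except 2. A pseudocount of 5 gave 2166 genes (1097 higher), and no fold threshold gave 11562 genes, 6355 higher and 5207 lower. Leaving out 1 library gave 3435 to 3468 genes, 1869 to 1909 higher and 1548 to 1579 lower. The share of higher calls among called genes was 50.4% to 56.1%. Replicate numbers of P7 and P15 libraries did not pair them (correlations of deviations between -0.15 and 0.09 over the 2 numberings), and with the replicate block from either numbering 3466 genes were called. Of 5856 recomputed gene values, 5791 kept direction and side of the threshold, 64 no longer passed and 1 reversed, HK2, which was not called and had -0.02 with P15 replicate 1 alone. Calls were lost with a pseudocount of 5 for B4GALNT4, BAD, BMPR1B, CD37, CDA, CDKN2A, DKKL1, DNMT3A, FAT4, FOXA1, GABRA3, INTU, IRF9, LIN7B, MCM2, MMP2, NUF2, NUPR1, PDGFRB, POSTN, SLC6A16, SRXN1, TET1 and TIMP4, in the test against a 2-fold change for ANKRD50, B4GALNT4, BAD, CDKN2A, DNMT3A, DUSP1, EZH2, FOXA1, IFIT1, INTU, IRF9, MCM2, NUF2, PDGFRB, PFKM, RPL3, SRXN1, TET1 and ZEB1, and under quantile normalization for IFIT1, IRF9, MCM2, PDGFRB, RPL3 and RPL5. Calls were also lost with a median shift for NUF2 and RPL3, with P15 replicate 1 alone for CDKN2A, EZH2, PDGFRB and SRXN1, without P15 replicate 1 for FOXA1, MCM2 and RPL3, without P15 replicate 2 for IFIT1 and RPL3, without P7 replicate 2 for RPL3, and without P15 replicate 4, P7 replicate 3 or P7 replicate 4 for MCM2. Of 839 recomputed list medians, 89 moved by more than the spread between libraries and 1 reversed, and of 1678 list counts, 50 moved by over 1.5 times. With a pseudocount of 5, higher members went from 9 to 4 for the TGF-beta and BMP pathway (lower from 7 to 4), from 6 to 2 for WNT, from 7 to 4 for epithelial junctions, from 6 to 3 for oxidative phosphorylation and from 3 to 1 for chromatin regulators, and lower HOX genes from 9 to 5. In the test against a 2-fold change, higher members went from 6 to 3 for mesenchymal genes and for oxidative phosphorylation, from 15 to 9 for ribosomal proteins and from 3 to 0 for chromatin regulators, and lower lysosomal membrane genes from 7 to 4. Under quantile normalization lower integrins went from 3 to 5. With a filter at 5 CPM, higher members went from 9 to 5 for TGF-beta and BMP and from 6 to 2 for WNT, which had 3 with the filter over 16 libraries. The other moved counts were of at most 5 genes. The median of the endothelial markers turned to 0.87 above 5 CPM, where 2 genes were left. The 1 mitosis gene called higher became 2 without P7 replicate 2 or P15 replicate 2. Low genes near 1 CPM rest on few reads, 1 line was sequenced, and the 2 decimals of the values limit precision at the lowest levels.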

Other observations

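Some genes had moved before P7 and stood near their parental level again at P15. Of the 405 called genes whose P0 or P3 mean lay more than 1 log2 unit from P7, 136 had a P0 mean within 1 of the P15 mean, 92 of them lower and 44 higher at P15 than at P7. Over all 3466 called genes, 797 had a P0 mean within 1 of the P15 mean. No test was made of this, since P7 enters both steps.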
